A study of Sus scrofa domesticus with 2 samples.

Results

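The genes described here are MGP and SULF1, 2 of the 22804 genes counted in single-cell RNA-seq libraries of cultured pig endothelial cells (ECs). Both were chosen by their measured levels, since earlier results of these data had shown them higher in aorta than in lung ECs. The aorta to lung difference and the levels by cell class, CCL5 and depth are therefore given as descriptions, with no test. MGP encodes matrix Gla protein, a small secreted protein whose glutamate residues are carboxylated by a vitamin K-dependent enzyme. It binds calcium and bone morphogenetic proteins (BMPs), and its loss in mice calcifies the large arteries. SULF1 encodes an extracellular sulfatase that removes 6-O-sulfate groups from heparan sulfate, the sugar chain on which FGF and VEGF ligands meet their receptors. Both proteins act outside the cell, and transcripts in a droplet say nothing about how much protein reached the matrix.

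The 2 samples were cultured aorta ECs and cultured lung ECs of domestic pig (Sus scrofa domesticus), 1 library each. The cells were freed from the vessel wall or from a perfused lung leaf by a digestion buffer and grown in a serum-containing medium called PAEC medium. Neither culture was given a treatment or a genetic change in the labels, and the culture protocols do not say how many animals gave the cells, whether both cultures came from the same animal, or their passage. The methods give an age and slaughterhouse origin for the pigs of the scRNA-seq tissues, without repeating them for the cultures. With 1 library per group, no p-value can be given, and donor, passage, library and vessel of origin cannot be told apart.

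The aorta library held 46080859 unique molecular identifiers (UMIs, each counting 1 captured transcript) in 1185 cell barcodes, and the lung library 57213236 UMIs in 5946. Only 5 barcode sequences occurred in both. Cells with more than 200 detected genes and under 30% mitochondrial UMIs were kept, which left 955 aorta cells with a median of 52080 UMIs and 5709 lung cells with a median of 9463 UMIs. The methods of the study also drop cells with 5000 or more genes. That limit would remove 709 of the 955 aorta cells but only 26 of the 5709 lung cells, and it was left out of the values below because the study states more aorta cells than it leaves.

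A cell was called endothelial where UMIs of PECAM1, the adhesion molecule CD31, exceeded those of COL1A1 and COL1A2 together. It was called collagen-high where the collagen UMIs exceeded PECAM1 and reached 1000 per 1000000 UMIs of the cell. This gave 704 endothelial, 157 collagen-high and 94 other cells in the aorta culture, and 5305, 349 and 55 in the lung culture. Of 13 further endothelial markers, 11 (aorta) and 12 (lung) were at least 2-fold higher in endothelial than in collagen-high cells, measured as counts per 1000000 UMIs (CPM) over the summed cells of a class. CDH5, which encodes VE-cadherin, stood at 195 CPM in aorta and 156 CPM in lung endothelial cells. FLT1 went the other way in both cultures, at 32.3 CPM in collagen-high and 25.4 CPM in endothelial cells of the aorta. In the lung it stood at 46.3 and 21.3 CPM. The defining markers VWF (0.195 and 0.399 CPM) and KDR (0.390 and 1.78 CPM) were nearly absent from the endothelial cells of both cultures. At such levels, KDR in both cultures and VWF in the lung still counted as 2-fold higher, and aorta VWF did not. The chondrogenic genes SOX9, ACAN and COL2A1 summed to 0.223 CPM in aorta and 0.152 CPM in lung endothelial cells, at or near 0.

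At the limit of the endothelial rule, the 41 aorta cells whose PECAM1 exceeded collagen by 1 to 3 UMIs held 139 CPM of MGP and 112 CPM of SULF1. These rested on 20 MGP UMIs in 8 cells and 16 SULF1 UMIs in 4 cells, 9 of the latter in 1 cell. The 94 aorta cells just outside it, with PECAM1 equal to collagen or up to 2 UMIs below, held 125 CPM of MGP, 29 of its 44 UMIs in 1 cell, and 0 UMIs of SULF1. Both sets were shallow, with a median of 2706 UMIs inside and 2996 outside, and had median mitochondrial shares of 0.264% and 0.124%.

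In the RefSeq annotation of Sscrofa11.1, the build of the counts, MGP lies on the plus strand of chromosome 5 at 57665272 to 57669360 and has 1 transcript of 4 exons. SULF1 lies on the minus strand of chromosome 4 at 65595947 to 65778889 and has 12 transcripts of 20 to 22 exons that begin at 12 different places spread over 92659 bases. Libraries made from transcript 3′ ends do not show which of these starts a cell used, so no SULF1 promoter is printed. The 250 bases before the MGP start (chr5:57665022-57665271, plus strand, RefSeq Sscrofa11.1) are shown because MGP, unlike SULF1, has only 1 annotated start. Capitals mark the only match to any of 5 motifs searched on both strands, a TATA box spelled TATAAA that covers bases 48 to 43 before the start.

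MGP promoter: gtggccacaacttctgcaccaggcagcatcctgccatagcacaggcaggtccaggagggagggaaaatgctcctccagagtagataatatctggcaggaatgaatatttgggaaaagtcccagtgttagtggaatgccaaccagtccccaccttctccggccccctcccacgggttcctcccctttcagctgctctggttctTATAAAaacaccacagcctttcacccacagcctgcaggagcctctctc

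TATAAA occurred in 10.4% of 20664 such windows over protein-coding genes. The other motifs searched were TGANTCA (AP-1, in 5.48% of windows), GGCGCC (in 15.7%), TTTCNNTTT (the interferon-stimulated response element core, in 10.7%) and GGANTTTCC (NF-kappaB, in 1.42%). In the window before the outermost SULF1 start, TTTCNNTTT occurred 1 time, at bases 107 to 99 before the start, and the other 4 had no match. These are matches of letters and not measured binding sites.

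MGP stood at 164 CPM in aorta endothelial cells (95% Poisson interval 160 to 169, 5904 UMIs) and at 17.6 CPM in lung endothelial cells (16.5 to 18.8, 927 UMIs). The aorta level was 9.35-fold the lung level (95% interval 8.72 to 10.0). SULF1 stood at 52.7 CPM in aorta endothelial cells (50.4 to 55.1, 1892 UMIs) and at 3.93 CPM in lung endothelial cells (3.41 to 4.50, 207 UMIs). Its aorta level was 13.4-fold the lung level (11.6 to 15.6). All intervals cover counting error only. UMIs of both genes clump in cells, as given below, so the spread from cell to cell is wider than these intervals, and the spread between cultures is unknown.

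Both genes were thus higher in the aorta, a contrast in which 3.08% of 5915 genes at 20 CPM or more in either library were 2-fold or more higher and the median log2 ratio of all of them was 0.05. In the order of that ratio, SULF1 was number 6 and MGP number 12. Among the 3243 genes that reached 50 CPM in either library, SULF1 was number 4 and MGP number 5. Since this contrast chose the 2 genes, their place in it is no finding.

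Markers of other cell types differed between the endothelial cells as well. The 6 fibroblast markers summed to 276 CPM in aorta and 78.0 CPM in lung endothelial cells, with all 6 above 0 in both. Within that list, FBLN1 made up most of both sums, at 149 and 72.8 CPM. COL3A1 stood at 83.6 and 1.44 CPM and the proteoglycan gene DCN at 18.5 and 0.0190 CPM, while only COL6A1 was lower in the aorta (1.23 and 2.77 CPM). In aorta collagen-high cells, COL3A1 (401 CPM) and COL6A1 (652 CPM) were above their endothelial levels. FBLN1 (5.47 CPM), DCN (4.80 CPM), LUM and PDGFRA were below theirs, so the sum does not measure fibroblasts alone. The 8 smooth muscle and pericyte markers summed to 250 CPM in aorta and 967 CPM in lung endothelial cells, nearly all of it TAGLN (240 and 956 CPM). The others were all under 5 CPM in both, ACTA2 (4.37 and 4.71 CPM) the highest of them. With endothelial cells restricted to those whose COL1A1 and COL1A2 UMIs were at most 0.1 of PECAM1, the aorta to lung ratio was 8.17-fold for MGP, over 597 and 5058 cells.

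A larger share of aorta endothelial cells also held a transcript at matched depth. MGP was seen in 369 of 704 aorta cells (52.4%) and 256 of 5305 lung cells (4.83%). With every cell cut down at random to 5200 UMIs and shallower cells left out (42 aorta and 376 lung cells), MGP was seen in 24.5% of 662 aorta cells (95% Clopper-Pearson interval 21.2 to 27.9) and 3.45% of 4929 lung cells (2.96 to 4.0). SULF1 was seen in 403 aorta cells (57.2%) and 180 lung cells (3.39%), and after thinning in 18.3% (15.4 to 21.4) and 1.81% (1.45 to 2.22).

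**Figure D1:**
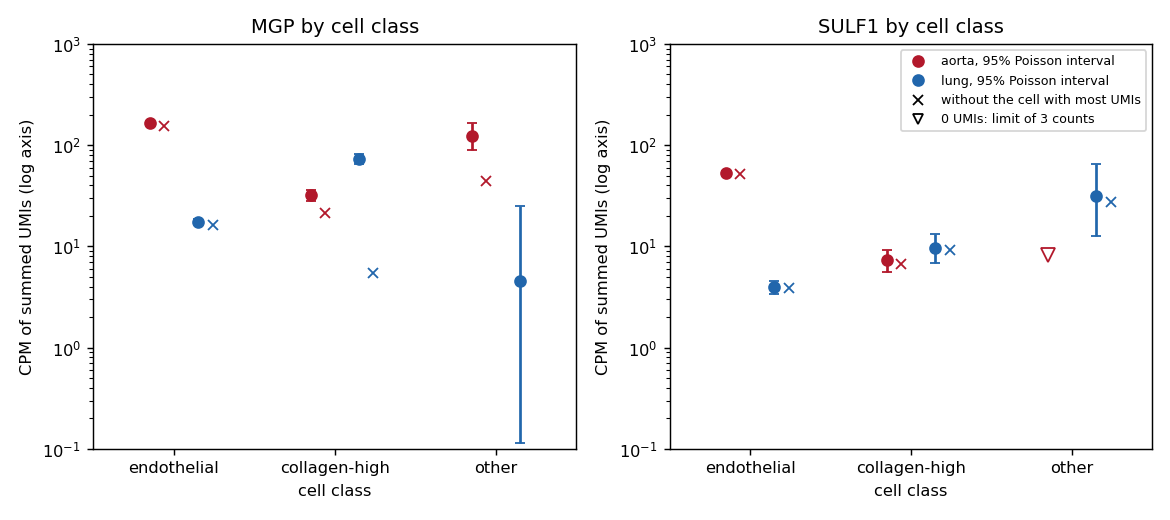
Level of MGP and SULF1 in CPM (log axis) in endothelial, collagen-high and other cells of the aorta and lung cultures, with 95% Poisson intervals for counting error. Crosses leave out the cell with most UMIs of the gene and the open triangle is the limit for 0 UMIs. MGP in lung collagen-high cells drops from 73.7 to 5.46 CPM without 1 cell, while SULF1 levels without the top cell stay within their intervals.

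In the aorta culture, both genes were lower in collagen-high than in endothelial cells. MGP stood at 31.9 CPM in collagen-high cells (28.3 to 35.9, 286 UMIs), 0.194 times the endothelial level (0.172 to 0.219). SULF1 stood at 7.26 CPM there (5.6 to 9.25, 65 UMIs), 0.138 times the endothelial level (0.106 to 0.176). In that contrast 12.6% of 6289 genes were 2-fold or more lower in collagen-high cells. The median depths of both classes were close, at 58922 UMIs for collagen-high and 53208 for endothelial cells. Collagen-high cells held 97 of their 286 MGP UMIs in 1 cell, and their level was 21.4 CPM without it. Thinned to 5200 UMIs, 8 of 141 collagen-high cells held MGP (5.67%, interval 2.48 to 10.9) and 1 of 141 held SULF1 (0.709%, 0.0180 to 3.89).

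In the lung culture, the ratios pointed the other way, in a contrast in which 6.40% of 6065 genes were 2-fold or more higher in collagen-high cells. MGP stood at 73.7 CPM in lung collagen-high cells, 4.19-fold the endothelial level (3.67 to 4.78), but 276 of the 298 UMIs came from a single cell of 13462 UMIs. Without that cell, and without the endothelial cell with most MGP, the levels were 5.46 and 16.2 CPM, a ratio of 0.338. Shares of cells with MGP were 3.11% (1.5 to 5.64) of collagen-high and 3.45% of endothelial cells after thinning. SULF1 rested on no such cell. It stood at 9.65 CPM in lung collagen-high cells (6.86 to 13.2, 39 UMIs, at most 2 in a cell), 2.46-fold the endothelial level (1.70 to 3.47), and was seen in 5.28% of thinned collagen-high cells (3.11 to 8.32). Between cultures, SULF1 in collagen-high cells had overlapping intervals, at 7.26 CPM (aorta) and 9.65 CPM (lung).

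The cells in neither class were few and shallow. In the aorta, they held 124 CPM of MGP, of which 29 of 45 UMIs lay in 1 cell, and 0 UMIs of SULF1 in 94 cells, which allows a level of up to 8.27 CPM. These cells had a median of 3264 UMIs, too shallow to say that none expressed SULF1. Their median mitochondrial share was 0.112%, and 4 of the 8 smooth muscle and pericyte markers were at 0 while the list summed to 3967 CPM. In the lung, they held 1 MGP UMI (4.51 CPM) and 7 SULF1 UMIs in 7 cells (31.6 CPM, 12.7 to 65.0). Immune markers such as PTPRC and CD68 summed to 2827 CPM in the lung's other cells and to 9.81 CPM in lung endothelial cells. Of the 17 lung cells with 10 or more UMIs of these markers, 8 held SULF1, with 1 UMI in each, and none held MGP. These 17 are not a separate class, and 5 of them were endothelial. Leaving them out took SULF1 in lung endothelial cells from 207 to 205 UMIs and left 39 in collagen-high cells. Most of the 8 SULF1 UMIs were thus among those of the lung's other cells.

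Ordered by level, MGP ran from aorta endothelial cells (164 CPM) through the aorta's other cells (124), lung collagen-high (73.7), aorta collagen-high (31.9) and lung endothelial (17.6) to the lung's other cells (4.51). The intervals of the first 2 overlapped, as did those of the last 2. This order rested in part on single cells, since without the top cell of each class the aorta's other cells stood at 44.5 CPM and lung collagen-high cells at 5.46 CPM, below lung endothelial cells at 16.2 CPM. SULF1 ran from aorta endothelial cells (52.7 CPM) through the lung's other cells (31.6), lung collagen-high (9.65), aorta collagen-high (7.26) and lung endothelial (3.93) to the aorta's other cells at 0. The SULF1 intervals of the lung's other cells overlapped those of both neighbours, and the 2 collagen-high classes overlapped each other, while the limit for the aorta's other cells lay above the levels in aorta collagen-high and lung endothelial cells.

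Within aorta endothelial cells, MGP was far from even. A single cell of 16199 UMIs held 386 MGP UMIs, and 25 of 704 cells (3.55%) held 50% of all MGP UMIs. Of the 369 cells with MGP, 100 held 1 UMI and 112 held 10 or more. SULF1 was spread more evenly, with 50% of its UMIs in 65 cells (9.23%) and at most 49 in a cell. In lung endothelial cells, 50% of the MGP UMIs lay in 23 of 5305 cells (0.434%) and at most 76 in a cell, whereas 159 of the 180 lung cells with SULF1 held exactly 1 UMI.

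Thinned to 20000 UMIs, 595 aorta endothelial cells held from 0 to 163 MGP UMIs, with a median of 0, an upper quartile of 2 and a 90th percentile of 8. SULF1 ranged from 0 to 15, with a median of 0, an upper quartile of 1 and a 90th percentile of 3. The variance of MGP across these cells was 36.3 times its mean, and only 4 of the 1491 genes within 2-fold of its mean had a higher ratio. For SULF1 the variance was 3.46 times the mean, and 46 of the 3333 genes near its mean had a higher ratio. The median such ratio was 1.31 near the mean of MGP and 1.14 near that of SULF1. Both were more uneven than most genes of their level, and MGP the more so.

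**Figure D2:**
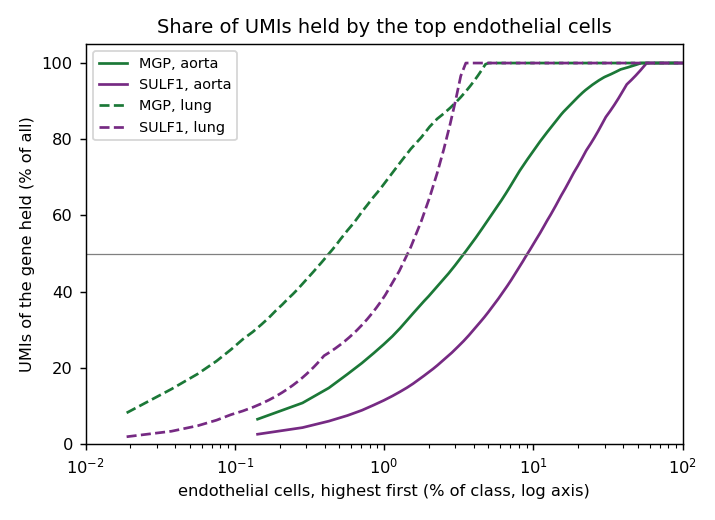
Share of all UMIs of MGP and SULF1 (% of the gene's UMIs) held by the endothelial cells with most of them, ranked from the highest (% of the class, log axis), in the aorta (solid) and the lung (dashed), with a line at 50%. In the aorta, 3.55% of cells hold 50% of the MGP UMIs and 9.23% hold 50% of the SULF1 UMIs, and in the lung the same shares lie in 0.434% and 1.45% of cells.

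CCL5, a chemokine that draws T cells and monocytes, was taken as a second axis within aorta endothelial cells. After thinning to 20000 UMIs, MGP stood at 416 CPM in the 131 cells with CCL5 and at 102 CPM in the 464 cells without it, 4.09-fold (3.75 to 4.47). In that contrast 1.55% of 5999 genes were 2-fold or more higher. MGP was seen in 56.5% of cells with CCL5 and 36.9% of cells without it. The level did not climb with the amount of CCL5. It was 446 CPM at 1 to 4 CCL5 UMIs (100 cells), 253 CPM at 5 to 19 (17 cells) and 396 CPM at 20 or more (14 cells), and without the cell with most MGP in each set these were 368, 194 and 242 CPM. The 31 cells with 5 or more CCL5 UMIs stood at 318 CPM against 163 CPM in all 564 others, 1.95-fold. At 50000 UMIs per cell the ratio with over without CCL5 was 2.82-fold, over 135 and 282 cells.

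SULF1 stood at 59.9 CPM with CCL5 and 51.4 CPM without it, 1.17-fold, with an interval of 0.967 to 1.40 that holds 1. Its levels in the 4 CCL5 sets were 51.4, 63.5, 52.9 and 42.9 CPM, and the intervals of all 4 overlapped. In lung endothelial cells thinned to 5200 UMIs, MGP was 35.8 CPM in 279 cells with CCL5 and 15.1 CPM in 4650 without it, 2.38-fold (1.75 to 3.19). Without thinning, that excess lay in the 369 lung cells with 1 to 4 CCL5 UMIs, at 50.7 CPM of MGP, or 33.2 CPM without the cell that held 76 of the 218 UMIs. The 31 cells with 5 to 19 CCL5 UMIs (9.98 CPM) and the 44 with 20 or more (14.7 CPM) were not above the 4861 without CCL5 (14.7 CPM). SULF1 in the thinned lung cells was 6.20 and 3.60 CPM, 1.72-fold, with an interval of 0.763 to 3.43. At that same depth in the aorta the ratios were 5.82-fold for MGP (4.99 to 6.79) and 1.03-fold for SULF1 (0.645 to 1.59). There, 1 aorta endothelial cell held 119 MGP UMIs, where all 76 cells with CCL5 held 296. The MGP ratio without that cell was not computed. Before thinning, the aorta cell with 386 MGP UMIs held 5 to 19 CCL5 UMIs.

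Depth sorted the aorta endothelial cells less clearly. The 595 cells with 20000 UMIs or more held 155 CPM of MGP and the 109 shallower ones 538 CPM, but 386 of the 471 shallow UMIs lay in 1 cell. Without the top cell on each side, the levels were 148 and 99.0 CPM, so that the direction turned. SULF1 stood at 52.0 CPM in deep and 80.0 CPM in shallow cells, 0.650-fold (0.512 to 0.838), with at most 9 UMIs in a shallow cell. In that contrast 0.953% of 6087 genes were 2-fold or more lower in deep cells, MGP among them and SULF1 not. By finer sets, MGP was 170 CPM under 5200 UMIs (42 cells), 595 CPM from 5200 to 20000 (67 cells), 226 CPM from 20000 to 50000 (178 cells) and 136 CPM at 50000 or more (417 cells). Without the top cell of each set, it was 113, 87.7, 193 and 128 CPM. SULF1 was 42.5, 85.8, 52.0 and 52.0 CPM in the same order, and the first of these rested on 5 UMIs.

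**Figure D3:**
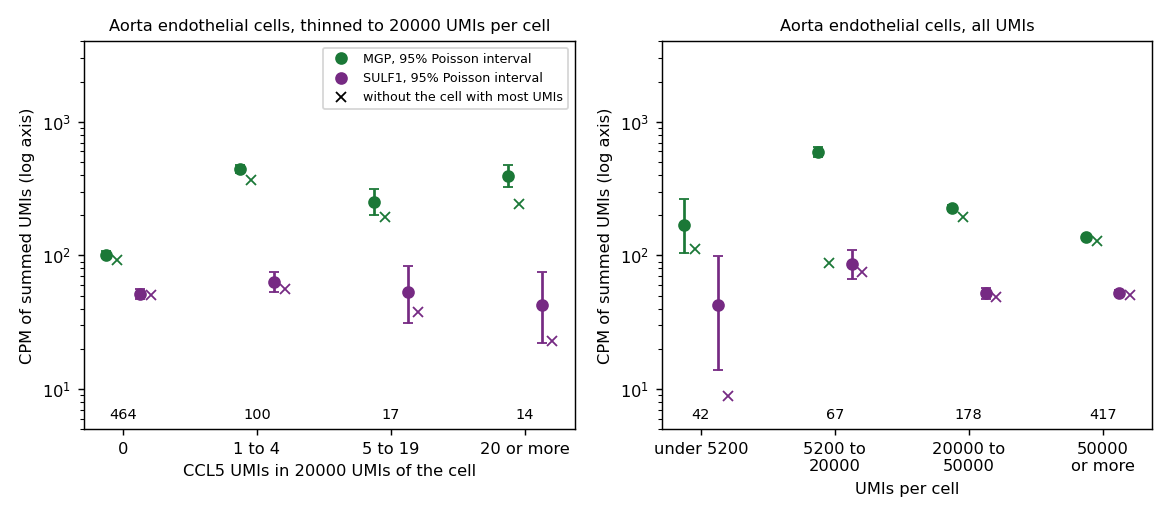
Level of MGP and SULF1 in CPM (log axis) in aorta endothelial cells, by CCL5 UMIs after thinning to 20000 UMIs per cell and by UMIs per cell without thinning, with 95% Poisson intervals, the number of cells above each axis label and crosses for the level without the cell with most UMIs. MGP is higher in each set with CCL5 than in the 464 cells without it, while SULF1 stays between 42.9 and 63.5 CPM. By depth, the MGP value of 595 CPM falls to 87.7 CPM without 1 cell.

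Levels of both genes were highest in the cells with the fewest transcripts of cell cycle genes. The 595 thinned aorta endothelial cells were ranked by their UMIs of 7 genes of the G2M phase, among them TOP2A and CDK1, and cut into tertiles, a split chosen after the values had been seen. MGP stood at 296 CPM in the 227 cells with 0 to 2 of these UMIs, 104 CPM in the 176 cells with 3 to 16 and 83.1 CPM in the 192 cells with 17 to 88. SULF1 stood at 93.0 CPM (84.3 to 102), 26.7 CPM (21.6 to 32.7) and 30.7 CPM (25.4 to 36.8) in the same sets. For 7 genes of the S phase, such as PCNA and MCM2, MGP was 267, 153 and 87.3 CPM and SULF1 93.2, 37.9 and 27.8 CPM from the lowest to the highest tertile. SULF1 was seen in 59.9% of the cells lowest in G2M genes and 35.4% of those highest.

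For 5 interferon-response genes, such as ISG15 and MX1, the order was the reverse. MGP was 85.3 CPM in the tertile with the fewest of these UMIs, 145 CPM in the middle and 290 CPM (273 to 307) in the highest. SULF1 was 40.5, 55.6 and 65.6 CPM. Leaving out the cell with most MGP in each tertile gave 71.8, 128 and 250 CPM. The 3 lists share no genes with each other, but all tertiles cut the same 595 cells, so these are not separate samples.

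**Figure D4:**
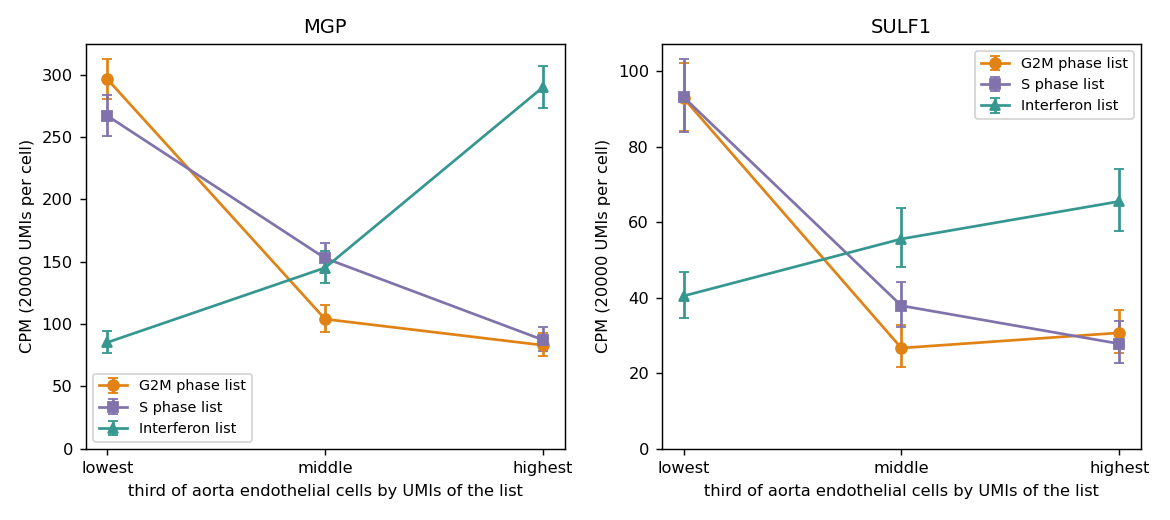
Level of MGP and SULF1 in CPM in 595 aorta endothelial cells thinned to 20000 UMIs, in tertiles of cells by their UMIs of the G2M phase, S phase and interferon lists, with 95% Poisson intervals. MGP runs from 296 CPM in the tertile lowest in G2M genes to 83.1 CPM in the highest, and from 85.3 to 290 CPM along the interferon list, and SULF1 runs from 93.0 to 30.7 CPM and from 40.5 to 65.6 CPM.

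The cells richest in MGP, 95 of the 595 with 5 or more UMIs, were compared with the other 500, again a split chosen after seeing the values. SLPI, a secreted protease inhibitor, stood at 1821 CPM in the rich cells and 410 CPM in the rest. CFD, the complement factor D gene, stood at 279 and 59.6 CPM, and the stress cytokine GDF15 at 298 and 93.8 CPM. The interferon-induced genes IFIT1 (365 and 155 CPM) and RSAD2 (214 and 92.0 CPM) were also higher, as was TIMP3, a metalloproteinase inhibitor (223 and 114 CPM). Lower in MGP-rich cells were IL6 (38.9 and 111 CPM) and the mitotic genes KIF23 (39.5 and 108 CPM) and DLGAP5 (50.5 and 110 CPM). CCL5 stood at 194 and 107 CPM and SULF1 at 77.4 and 48.7 CPM. PECAM1 (1348 and 1315 CPM) and the summed endothelial markers (1959 and 1721 CPM) were close in both sets, while the fibroblast markers summed to 379 and 266 CPM.

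The 36 cells with 5 or more SULF1 UMIs shared SLPI (1917 CPM, against 553 CPM in the other 559) and TIMP3 (292 and 121 CPM) with the MGP-rich cells. They also held more IGFBP3, an insulin-like growth factor binding protein (110 and 41.6 CPM), LTBP1, which binds latent TGF-beta (136 and 62.7 CPM), and MGP itself (407 and 155 CPM). Proliferation genes were far lower in them. MYBL2 stood at 12.5 and 131 CPM, UBE2C at 15.3 and 108 CPM, TOP2A at 30.6 and 161 CPM and PCNA at 45.8 and 164 CPM. CFD stood at 86.1 and 95.2 CPM, and CCL5 at 210 and 115 CPM. COL1A1 was 40.3 CPM in SULF1-rich cells and 19.9 CPM in the rest, COL1A2 77.8 and 46.2 CPM, and the fibroblast markers 339 and 281 CPM, and the part of these in the SULF1 values was not tested. Median mitochondrial shares were 7.58% and 6.20%.

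Cells with MGP held SULF1 only slightly more often than cells without it. SULF1 was seen in 140 of the 350 thinned cells without MGP (40.0%, 34.8 to 45.3), in 67 of 150 with 1 to 4 MGP UMIs (44.7%, 36.6 to 53.0) and in 49 of 95 with 5 or more (51.6%, 41.1 to 62.0). Across the 595 cells, which share 1 library and 1 depth, Spearman's rho between them was 0.08, near 0. It was 0.22 between MGP and CCL5 and -0.01 between SULF1 and CCL5.

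The genes most like MGP across those cells, among 6463 with a UMI in at least 25% of them, were IGFBP7 (rho 0.40), SLPI (0.39), TMSB4X (0.37), TIMP3 (0.32) and FBLN5 (0.31). Of these, IGFBP7, TIMP3 and FBLN5 encode proteins of the extracellular matrix. For SULF1 they were ITGB5 (0.30), FBN1 (0.28), SERF2 (0.26), THBS1 (0.26) and IGFBP7 (0.26), and FBN1, the microfibril protein fibrillin 1, and THBS1 are matrix genes too. Over 21 pooled groups of cells, which overlap and share the 2 libraries, the genes with the highest Pearson r to MGP on log2(CPM + 10) included the unnamed gene ENSSSCG00000036114 (0.90), STX6 (0.88), RAB12 (0.84) and SMOC1 (0.84). For SULF1 they were PRCP (0.94), QSOX1 (0.91), KPNA6 (0.91), DENND5A (0.90) and TMEM245 (0.89), and r between MGP and SULF1 was 0.76. No gene was on both the cell and the group list of its member.

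The pathway around MGP was described by a list of 35 genes of Gla carboxylation, calcification and BMP signalling, of which 34 were measured and 18 reached 20 CPM in either endothelial class. Of these 18, 1 was 2-fold or more higher in the aorta, 0 were 2-fold or more lower and 17 lay between, where 3.08% of all 5915 genes were higher and 1.30% lower. The median log2 ratio of the list was 0.49, against 0.05 over all genes. PROS1, protein S, another vitamin K-dependent protein, stood at 64.3 CPM in aorta and 32.0 CPM in lung endothelial cells, 2.01-fold (1.88 to 2.14). GGCX, which encodes the carboxylase, stood at 38.5 and 23.0 CPM, 1.68-fold (1.55 to 1.81). VKORC1, which recycles vitamin K, was near equal at 69.4 and 68.4 CPM. The BMP ligands BMP4 (281 and 237 CPM) and BMP6 (138 and 94.6 CPM) and the modulator BMPER (55.7 and 37.3 CPM) were all expressed in both cultures. The receptors BMPR2 (182 and 110 CPM) and ENG (393 and 208 CPM) were higher in the aorta by less than 2-fold, and ACVRL1 was near equal (27.6 and 25.9 CPM). The receptor BMPR1A was under 20 CPM in both and so outside the count. It stood at 13.6 and 0.702 CPM (487 and 37 UMIs), 19.3-fold (13.8 to 27.8).

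The signal transducer SMAD1 was lower in aorta endothelial cells (51.1 and 85.3 CPM), and the BMP target genes ID1 (281 and 301 CPM), ID2 (95.8 and 59.4 CPM) and ID3 (704 and 523 CPM) differed in direction. FBN1 stood at 116 and 63.9 CPM. In aorta collagen-high cells, where MGP was lower too, 9 of 20 measured list genes above the minimum were 2-fold or more lower than in endothelial cells and 1 was higher, where 12.6% of all 6289 genes were lower and 7.73% higher. BMP6 stood at 2.68 against 138 CPM and BMP4 at 16.2 against 281 CPM. The median log2 ratio there was -0.27, against 0.03 over all genes. In lung collagen-high cells, where the summed MGP level was higher, 8 of 19 genes were lower and 3 higher, where 9.37% of all 6065 genes were lower and 6.40% higher. The median log2 ratio there was -0.29, against -0.01 over all genes. In the aorta, FBN1 (122 and 116 CPM) and VKORC1 (94.9 and 69.4 CPM) differed by less than 2-fold.

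Around SULF1, all 36 genes of a list on heparan sulfate synthesis, carriers and ligands were measured, and 13 reached 20 CPM. Of these, 3 were 2-fold or more higher in aorta than in lung endothelial cells and 0 lower, where 3.08% of all genes were higher and 1.30% lower. The median log2 ratio of the list was 0.27, against 0.05 over all genes. The 3 were FGFR1, the FGF receptor (71.8 and 17.9 CPM, 4.02-fold, 3.73 to 4.33), SULF2, the second 6-O-endosulfatase (35.8 and 16.4 CPM, 2.19-fold, 2.0 to 2.39), and the protease inhibitor SERPINE2 (37.7 and 18.2 CPM, 2.07-fold, 1.90 to 2.25). The ligand FGF2 stood at 248 and 148 CPM, 1.68-fold. EXT1, which polymerises the chain, was at 344 and 284 CPM. The carrier proteins at 20 CPM or more differed in direction. HSPG2 (36.9 and 51.0 CPM), COL18A1 (60.0 and 100.0 CPM) and SDC4 (33.6 and 39.8 CPM) were lower in the aorta, and AGRN (40.5 and 31.5 CPM) was higher. Under 20 CPM, SDC1 (7.52 and 3.45 CPM) and SDC2 (4.29 and 0.892 CPM) were also higher, and GPC1 (0.167 and 0.304 CPM) was lower. HS6ST1, which adds the sulfate groups that SULF1 removes, stood at 32.4 and 18.9 CPM.

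In aorta collagen-high cells, where SULF1 was 0.138 times the endothelial level, 3 of 17 heparan sulfate genes were 2-fold or more lower and 6 higher, where 12.6% of all genes were lower and 7.73% higher. The median log2 ratio of the list was -0.16, against 0.03 over all genes. FGF2 stood at 21.0 against 248 CPM, EXT1 at 60.1 against 344 CPM and HS6ST1 at 15.0 against 32.4 CPM. Higher in collagen-high cells were GPC1 (41.4 against 0.167 CPM), SDC2 (213 against 4.29 CPM) and SERPINE2 (485 against 37.7 CPM). So were SDC1 (37.5 against 7.52 CPM), COL18A1 (227 against 60.0 CPM) and VEGFA (72 against 26 CPM). In lung collagen-high cells, where SULF1 was higher, 2 of 15 were lower and 7 higher, where 9.37% of all genes were lower and 6.40% higher, with a median log2 ratio of 0.81 against -0.01 over all genes.

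**Figure D5:**
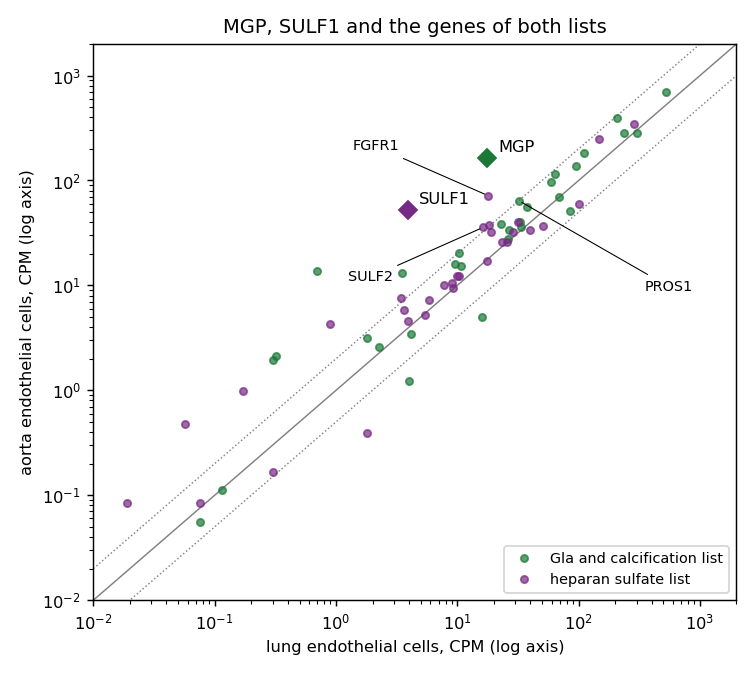
Level in aorta against lung endothelial cells (CPM, both axes log) of MGP, SULF1 (diamonds) and the genes of the Gla and calcification list and the heparan sulfate list with at least 1 UMI in both (31 of each list), with lines at equal levels and at 2-fold. MGP and SULF1 lie 9.35-fold and 13.4-fold above the line of equal levels, and the labelled FGFR1, SULF2 and PROS1 lie 4.02, 2.19 and 2.01-fold above it.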

How the data were processed

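Single cells of both cultures were captured with 10x Genomics 3′ v3 chemistry, and the authors made the counts with Cell Ranger 3.0.2 on Sscrofa11.1. The deposited counts are whole UMIs per Ensembl gene and cell, without normalization and before the cell limits of the methods. Cells above 200 detected genes were kept where 12 mitochondrial genes took less than 30% of the UMIs. No doublet caller was run, and the sources used here name none. Levels are UMIs of a gene summed over a class per 1000000 UMIs of the class, with exact Poisson, conditional ratio or Clopper-Pearson intervals at 95%. Zero counts were given a limit of 3 counts. Cells were thinned without replacement to 5200, 20000 or 50000 UMIs. A gene was compared where it reached 20 CPM in either group. The named genes are MGP, SULF1, members of the 2 pathway lists at 50 CPM or more in an endothelial class, and the 5 genes most like each. SULF2, SERPINE2, HS6ST1, GGCX, ACVRL1, BMPR1A, SDC1, SDC2, SDC4, GPC1, AGRN, VEGFA and the genes of rich cells were named after their values had been seen. RRM2, AURKA, IFIT3, OAS1 and BGLAP were listed but not among the features. Some genes that the naming rule would give are not reported here. The members and lists were chosen with earlier results of these data known. Python 3.11.15, numpy 2.4.6, pandas 2.3.3, scipy 1.17.1 and matplotlib 3.10.9 were used, and the steps were tested on simulated data. Deep cells carry less counting error per cell, and the depth of the aorta cells exceeds that of the lung cells. Alternatives covered the gene and mitochondrial limits, mixed and immune-marked cells, scaling, pooling, depth and single cells.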

Additional observations from a re-analysis of the deposited data

Results flagged for a closer look

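The collagen-high to endothelial ratio pointed in opposite directions in the cultures for both genes. For MGP the log2 ratio was -2.36 in the aorta and 2.07 in the lung, and for SULF1 it was -2.86 in the aorta and 1.30 in the lung. The difference was not tested, since each culture is 1 library. For MGP the lung value rested on 1 cell with 276 UMIs, and without the top cell of each class the lung log2 ratio was -1.56, the same direction as in the aorta. For SULF1, no collagen-high lung cell held more than 2 UMIs, and the lung log2 ratio stayed between 1.25 and 1.52 under all 11 alternatives tried.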

How the results depend on the processing

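Of 110 alternative values for the 10 log2 ratios, 82 moved by less than the counting interval, 21 moved by more and 7 reversed. The upper limit of 5000 detected genes moved the aorta to lung ratio to 5.18 for MGP and 4.52 for SULF1 (log2). It left 735 MGP UMIs in 123 aorta endothelial cells, 386 of them in 1 cell. MGP in aorta collagen-high over endothelial cells moved to -6.05, with 2 MGP UMIs in 29 collagen-high cells. MGP with over without CCL5 moved to 5.40, where 5 and 9 cells were left. The same limit turned deep over shallow to 0.43 for MGP and 0.56 for SULF1. The mean of CPM over cells gave 3.55 for MGP aorta over lung, -2.84 and -2.48 for MGP and SULF1 in aorta collagen-high over endothelial cells, 1.87 for MGP in the lung and -1.04 for MGP deep over shallow. Thinning to 5200 UMIs gave 3.62 and 3.98 for aorta over lung and -3.61 and -5.43 for aorta collagen-high over endothelial cells (MGP and SULF1). That thinning also gave 2.54 for MGP with over without CCL5 and -1.36 for MGP deep over shallow. In these values, 1 aorta endothelial cell held 119 MGP UMIs. Endothelial cells without mixed cells gave MGP 3.03 for aorta over lung and turned deep over shallow to 0.51. Without the cell with most UMIs of the gene, an alternative chosen after seeing the data, MGP was -2.85 for aorta collagen-high over endothelial cells and turned to -1.56 in the lung and 0.58 for deep over shallow. At least 5 CCL5 UMIs gave 0.97 for MGP and turned SULF1 to -0.15, and thinning to 50000 UMIs gave 1.5 for MGP. MGP deep over shallow was -1.93 without cells under 1% mitochondrial UMIs, -2.11 with a 10% limit and turned to 0.21 at a limit of 10000 UMIs. With no minimum level, the genes past 2-fold went from 259 to 1970 for aorta over lung, from 1277 to 4048 and from 956 to 4031 for collagen-high over endothelial cells of aorta and lung, and from 162 to 1126 for CCL5. No paired analysis was possible because each group has 1 library. Genes at a few counts, as SULF1 in lung cells, are limited by depth.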
